A study of Saccharomyces cerevisiae with 4 samples.

Results

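The wild-type wine yeast 59A was hybridised on 2 of the 4 arrays of the series, and these 2 arrays, biological replicates 1 and 2, supplied every value given here. 59A is a haploid derivative of the industrial wine strain EC1118 and served as the control strain, with no gene deleted by the study. Both cultures fermented a synthetic medium holding 142 mg/L assimilable nitrogen, 5% lipid factor and 230 g/L of glucose plus fructose, stirred without air at 24 °C. They represent a single strain in a single medium at a single stage of fermentation. All probes were ranked by the mean of their log2 intensities on the 2 arrays, with rank 1 for the brightest. The ranking holds 6227 probes, which give 6226 features because 1 gene had 2 probes, and 4060 of the features carry a gene symbol. The remaining 2166 probes are unnamed here and took part in the ranking by their probe ID.

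A fermenting yeast makes ATP from sugar through glycolysis and regenerates NAD by reducing acetaldehyde to ethanol. Without oxygen it cannot complete sterol synthesis or desaturate fatty acids, and it transcribes a set of hypoxic genes, many of them for cell wall proteins and for alternative forms of respiratory and lipid enzymes. When nitrogen runs short, transporters and degradative enzymes for poor nitrogen sources are released from repression, ribosome production declines and genes of the general stress response are induced.

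The log2 intensity is the logarithm to base 2 of the fluorescence of a probe after normalisation. The order of probes is therefore an order of signal, since probes bind with different affinity and near-identical gene copies share signal. It is not corrected for transcript length and does not count molecules. Each array reports shares of the labelled RNA, so that less RNA per cell and fewer cells cannot be told apart.

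The mean log2 intensity spanned 10.4 units, and the middle 50% of features lay between 7.37 and 9.71 around a median of 8.51. At the upper end 117 features exceeded 13 and 29 exceeded 15. The highest value, 15.94 on both arrays, lay just under the ceiling of 16 that a 16-bit scanner sets, and compression of the brightest probes was not tested. The lower end flattened into a floor, defined as the 1st percentile of the means plus 0.25 units, or 5.90. There were 512 features at or below it, 8.22% of all. Whether the strain carries a matching target for every probe was not tested, so low signal is not read as low transcript.

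**Figure D1:**
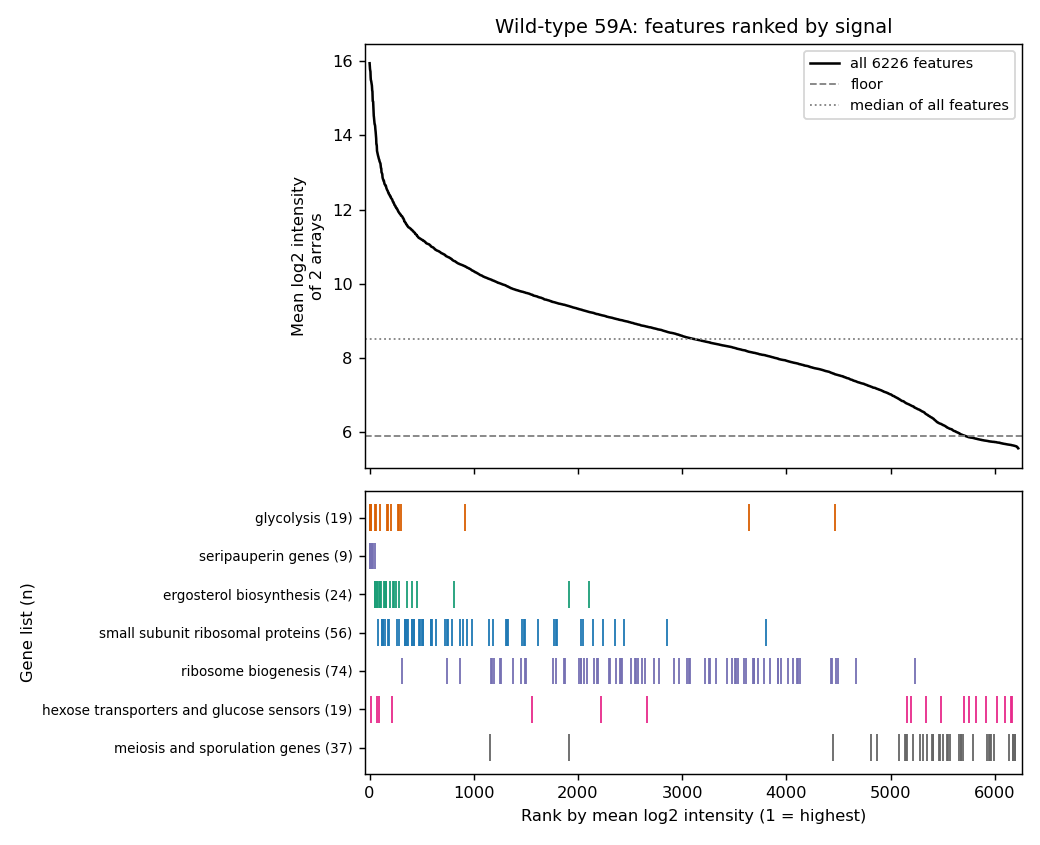
The upper panel plots the mean log2 intensity of each of the 6226 features against its rank, with the median of 8.51 dotted and the floor of 5.90 dashed. Each tick in the lower panel is a member of a gene list, and glycolytic and seripauperin genes crowd the left edge, ribosome biogenesis genes spread over the middle, and genes of meiosis and sporulation lie mostly at the right.

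Genes of glycolysis headed the ranking. Of 19 measured members 17 lay above the median of all features, 10 were among the 100 brightest features and 7 among the 40 brightest, and their median percentile was 98.5 (50 over all features by construction). *FBA1*, which encodes aldolase, was first on both arrays at 15.94 and 15.94 in replicates 1 and 2. *TDH1* (glyceraldehyde-3-phosphate dehydrogenase) followed at 15.94 and 15.84, and *GPM1* (phosphoglycerate mutase) at 15.85 and 15.89. *ADH1*, the main alcohol dehydrogenase that reduces acetaldehyde to ethanol, had rank 4 at 15.78 and 15.82. The triose phosphate isomerase gene *TPI1* was at rank 7, *PGK1* (phosphoglycerate kinase) at rank 9, *ENO1* (enolase) at rank 11 and *CDC19* (pyruvate kinase) at rank 15. *PDC1*, which makes acetaldehyde from pyruvate, gave 15.27 and 15.58 at rank 19. The ranges of the 2 replicates overlapped for 33 of the 39 pairs of neighbours within the 40 brightest features and for 93 of the 99 pairs within the 100 brightest, so the exact order at the top was not resolved. The upper steps of the pathway gave lower signal. *PFK1*, a subunit of phosphofructokinase, was at 13.22 and 13.39, and *HXK1*, a hexokinase, at 12.04 and 12.55. The members below the median were *GPM3*, at 8.31 and 8.03, and *PYK2*, a second pyruvate kinase, at 7.61 and 7.52.

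The alcoholic fermentation list held 11 measured genes with a median percentile of 87.2. Besides *ADH1* and *PDC1* none of them reached the 100 brightest features. Those that followed were *ADH3*, a mitochondrial alcohol dehydrogenase, at 12.30 and 12.51, and *SFA1*, which also acts on formaldehyde, at 11.84 and 12.16. *ADH2*, the enzyme that consumes ethanol and is repressed by glucose, lay near the lower end at 6.33 and 6.64, as did *ADH4* at 6.44 and 6.41.

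Seripauperins, small cell wall mannoproteins made without oxygen, took 8 of the 40 leading places, against 7 for glycolysis. All 9 measured *PAU* genes were among the 100 brightest features, while the other 15 listed members were not analysed here. *PAU5* had rank 5 at 15.77 and 15.79 and *PAU7* rank 6 at 15.79 and 15.73, while *PAU24* had rank 10 at 15.60 and 15.53. The lowest, *PAU23*, gave 14.50 and 13.84, the widest replicate gap in the family. These genes are close copies of each other, so signal can be shared between their probes.

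The wider list of hypoxic and sterol uptake genes, which contains 2 of the seripauperins, had 28 of 29 measured members above the median and a median percentile of 95.6. It also holds regulators and *HYP2*, the counterpart of the hypoxic *ANB1* in air-grown cells, so not every member is a hypoxic gene. *OLE1*, the fatty acid desaturase, was at 15.45 and 15.57 (rank 12). The 4 *TIR* mannoproteins were all within the first 77 ranks, led by *TIR1* at 15.41 and 15.29, with *TIR3* at 14.79 and 14.86. *TIR2* gave 13.88 and 13.20 and *TIR4* 13.38 and 13.68. The hypoxic cytochrome c gene *CYC7* was at 13.20 and 13.29. *ROX1*, the repressor of hypoxic genes, was at 10.97 and 10.25, and *UPC2*, an activator of sterol genes, at 9.01 and 8.61. The single member below the median was *SUT1*, a regulator of sterol uptake, at 6.55 and 6.68.

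Among 24 measured genes of ergosterol biosynthesis, all lay above the median and 8 were among the 100 brightest, with a median percentile of 97.5. *ERG25* (methyl sterol oxidase) gave 14.44 and 14.21 and *ERG3* (C-5 sterol desaturase) 14.36 and 14.23. *ERG11*, the lanosterol demethylase, was at 13.95 and 13.51. The lowest signals came from the mevalonate branch, from *ERG12* (mevalonate kinase) at 9.45 and 9.03 and from *HMG1* (an HMG-CoA reductase) at 10.02 and 8.77. Fatty acid synthesis had a median percentile of 91.9 over 13 genes. *FAS1*, a subunit of fatty acid synthase, was at 13.65 and 13.86, and *ACC1*, acetyl-CoA carboxylase, at 12.68 and 12.76.

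Cell wall mannoproteins as a group, the *TIR* genes included, stood at a median percentile of 97.6, with 7 of 19 among the 100 brightest. *PST1* was at 14.12 and 14.38 and *SED1*, a major wall protein of stationary cells, at 13.79 and 13.73. In contrast *CWP1* gave 7.71 and 8.29 and *PIR1* 8.40 and 8.45. Of 26 enzymes and related genes of glucan remodelling 11 lay above the median and 15 below. *SCW4*, the first feature outside the 40 brightest, was at 14.43 and 14.60 and *EXG1*, an exoglucanase, at 14.07 and 13.86. The daughter cell genes *DSE1*, *DSE2* and *DSE3*, which help to separate daughter from mother, lay between 6.08 and 6.54.

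Hexose transporters and glucose sensors covered nearly the whole scale. *HXT3* gave 15.44 and 15.54 (rank 13), *HXT1* 13.58 and 13.58, *HXT7* 13.05 and 13.67 and *HXT6* 11.94 and 12.63. The first pair are low affinity carriers used at high sugar, and *HXT6* and *HXT7* are near-identical high affinity carriers whose signals cannot be told apart with certainty. Of the 19 members 7 were at the floor, against 8.22% of all features. Among them were *HXT11* at 5.65 and 5.65 and *HXT15* at 5.56 and 5.75, and the median percentile of the list was 14.3. The sensors *SNF3* and *RGT2* were close to the middle, at 9.11 and 9.20 and at 8.89 and 8.80.

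Of the 11 genes of glycerol formation, export and use, 6 lay above the median and 5 below. The phosphatase *GPP1* gave 13.56 and 13.24 and the dehydrogenase *GPD1* 12.38 and 12.47. *GPD2*, which also forms glycerol phosphate, gave 7.53 and 7.54. The glycerol-consuming enzymes *GUT1* and *GUT2* lay between 7.36 and 7.67, and the glycerol uptake gene *STL1* was at the floor at 5.69 and 5.75. *ALD6*, the cytosolic aldehyde dehydrogenase that forms acetate, was at 11.96 and 11.20.

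The general stress response list, targets of Msn2 and Msn4, had 38 of 42 measured members above the median and a median percentile of 88.8. *HSP26*, a small heat shock protein, closed the 40 brightest at 14.31 and 14.75. *DDR48* was at 14.31 and 14.45 and *YGP1*, a secreted glycoprotein induced by nutrient limitation, at 13.95 and 14.05. *HSP12*, a membrane-protecting member of the same list, gave 8.27 and 8.51, just under the median. Trehalose and glycogen genes were lower, with a median percentile of 73.1, and ranged from *UGP1* (UDP-glucose pyrophosphorylase) at 12.50 and 12.90 to *PIG1* at 6.85 and 6.84. Of 28 measured genes of oxidative stress defence 22 lay above the median, with a median percentile of 84.7. The peroxiredoxin *AHP1* gave 15.21 and 15.28 (rank 25), the superoxide dismutase *SOD1* 14.52 and 14.60 (rank 39) and the thioredoxin *TRX2* 14.24 and 14.31. At the other end the glutathione peroxidase gene *GPX1* gave 7.36 and 7.44. Both *CUP1* probes, for the copper metallothionein, exceeded 14 in both cultures, and the pair are copies of one gene.

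Ribosomal protein genes were bright but not among the brightest. Only 1 of 135 measured members, *RPS23B* at 13.59 and 13.33 (rank 81), was in the top 100, and 21 were in the top 300. Small subunit genes had a median percentile of 89.1 and large subunit genes of 87.6. The lowest was *RPL7B* at 6.63 and 6.67, and *RPL18B* gave 7.42 and 7.61. In 57 pairs of duplicated ribosomal genes both values of the A copy exceeded both of the B copy in 25 pairs. The reverse held in 24, and the replicate ranges overlapped in 8. The median absolute difference within a pair was 0.647, and the share apart among arbitrary gene pairs was not counted. The list of elongation and termination factors ranked higher, with a median percentile of 96.1 over 14 genes. *TEF2* and *TEF1*, both for eEF1A, gave 14.59 and 14.35 and 14.17 and 14.00. Initiation factors had a median percentile of 71.9, although the eIF4A genes *TIF2* (12.98 and 13.02) and *TIF1* (12.73 and 12.61) were high.

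The factors that build ribosomes were centred near the middle, at a median percentile of 55.8 over 74 measured genes, with 43 above and 31 below the median of all features. *NSR1*, a nucleolar protein, was the brightest at 12.20 and 11.45. *DBP6*, an RNA helicase, was the dimmest at 6.70 and 6.62. RNA polymerase I and III subunits and regulators lay a little lower, at 42.7.

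Genes of the respiratory chain and ATP synthase were high in these anaerobic cultures, with 32 of 36 above the median and a median percentile of 86.9. *QCR6* of complex III gave 13.42 and 13.25 and *COX13* of cytochrome oxidase 13.09 and 13.14. The NADH dehydrogenases *NDE1* and *NDE2* and the lactate dehydrogenase *CYB2* lay between 6.70 and 7.52. Tricarboxylic acid and glyoxylate cycle genes had a median percentile of 85.8, led by the succinate dehydrogenase genes *SDH4* (11.87 and 11.79) and *SDH1* (11.78 and 11.76). *MLS1*, malate synthase of the glyoxylate cycle, gave 7.91 and 8.28. Mitochondrial ribosomal proteins stood at 67.6.

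Features named by the mitochondrial genome were gathered after their values had been seen. Of 17 such features 8 lay above the floor and 9 at it, against 8.22% of all features at the floor. Whether the labelling captured mitochondrial and nuclear transcripts equally was not tested, so ranks against nuclear genes compare signal only. *OLI1*, subunit 9 of ATP synthase, had rank 8 of all features at 15.68 and 15.75. *COB* (cytochrome b) was at 12.90 and 12.39, *COX3* at 12.74 and 12.03 and *COX1* at 12.41 and 11.34, while *ATP6* was at the floor at 5.71 and 5.58. Of the 8 members above the floor 7 gave more signal in replicate 1, as did 44.6% of all features, and with *OLI1*, the exception, included the median difference was 0.676.

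Targets of nitrogen catabolite repression had 26 of 34 members above the median and a median percentile of 80.3. *GLN1*, glutamine synthetase, gave 13.77 and 13.35. *GAP1*, the general amino acid permease, was at 13.29 and 13.70, and *MEP2*, the high affinity ammonium permease, at 13.16 and 13.60. The GATA regulators *GAT1* and *DAL80* were at 11.70 and 11.76 and at 11.21 and 11.77. By contrast the allantoin permease *DAL4* gave 6.22 and 6.45. Of 24 amino acid permeases 9 lay above the median and 15 below, with a median percentile of 26.3. After *GAP1* came *PTR2*, a peptide transporter, at 12.32 and 12.78 and the arginine permease *CAN1* at 11.15 and 11.15. *GNP1* (6.02 and 6.12) and *AGP3* (5.68 and 5.64) were close to or at the floor. Amino acid biosynthesis stood at a median percentile of 69.9 over 77 genes, with the activator *GCN4* at 12.42 and 12.86. The thiamine and vitamin B6 list was below the middle, at 35.9, although *THI4* gave 11.39 and 11.45.

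The proteasome was uniformly above the median, 33 of 33, from *RPN6* at 12.03 and 12.34 to *RPT6* at 8.85 and 8.96. *PMA1*, the plasma membrane proton pump, gave 14.19 and 13.70 and the list of proton ATPases had a median percentile of 93.0. Core histones ranged from *HHT1* at 12.70 and 12.66 to *HTB2* at 9.80 and 10.13, and the centromeric variant *CSE4* gave 7.14 and 7.27. The subtelomeric *COS* genes, related to each other in sequence, ran from *COS4* at 14.35 and 14.46 to *COS7* at 5.58 and 5.58. Across the 48 lists 25 had a median percentile above 75, 9 of them above 90, while 5 were under 25 and 18 lay between.

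**Figure D2:**
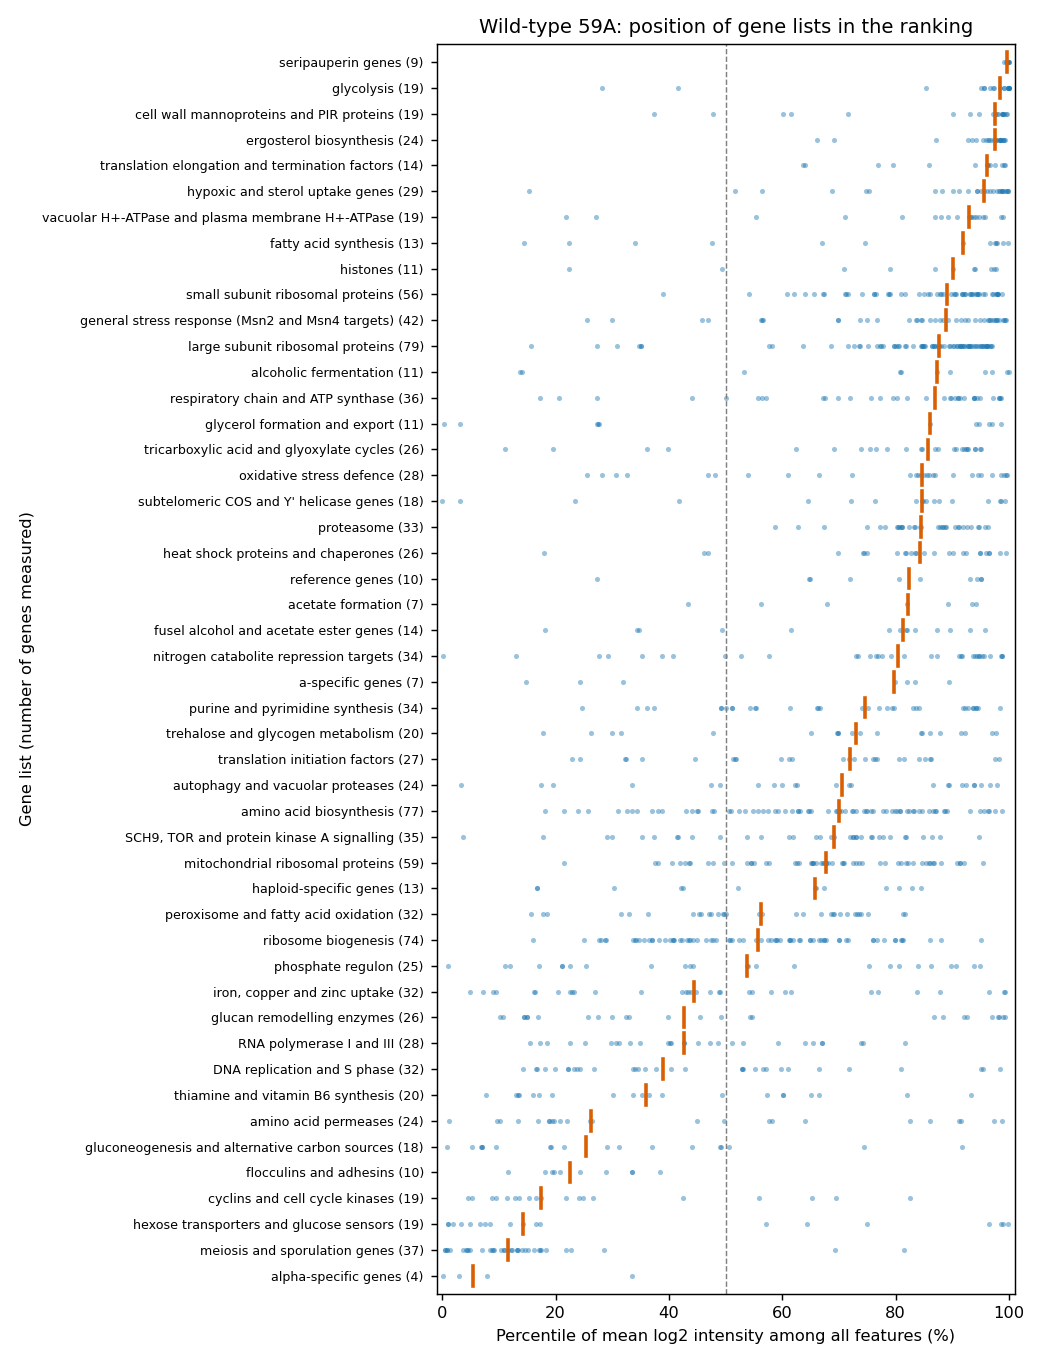
Each dot is the percentile of 1 gene in the ranking of mean log2 intensity and each orange bar the median of its list, over the 48 lists with the number of measured genes in brackets. Medians run from 99.7 in seripauperin genes to 5.46 in alpha-specific genes, and the hexose transporters are split between both ends.

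Between the 45th and 55th percentiles lay 622 features in a band of 8.32 to 8.75. *SCH9*, the kinase that acts in nutrient signalling and whose deletion defined the other strain of the series, fell in this band at 8.72 and 8.67 (rank 2875). Its partners in nutrient signalling spread widely, from the nitrogen regulator *GAT1* at rank 329 and the protein kinase A subunit *TPK2* at 9.73 and 9.90 to *RAS1* at 5.65 and 5.82, while *RAS2* gave 10.43 and 10.69. Also in the band were *CDC25*, the activator of Ras, at 8.51 and 8.45, *POL30*, the sliding clamp of DNA replication, at 8.60 and 8.71, *GCN2*, the kinase that senses uncharged tRNA, at 8.51 and 8.69, and *HHO1*, the linker histone, at 8.43 and 8.55.

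Of the 512 floor features 106 were named and 406 unnamed, which is 2.61% of named and 18.7% of unnamed features. Of 37 measured genes of meiosis and sporulation 35 lay below the median and 11 at the floor, with a median percentile of 11.6. *SMK1*, a sporulation kinase, gave 5.75 and 5.55 and *SPS2*, a spore wall gene, 5.68 and 5.59. The exceptions above the median were *SPS100*, a spore wall gene, at 10.11 and 10.14 and *SPR6* at 9.25 and 9.55. The chitin deacetylase *CDA1* (5.59 and 5.64), which acts in the spore wall, was also at the floor. So were the 4 features named for *ASP3*, a cell wall asparaginase, with *ASP3-1* at 5.52 and 5.64. Whether this strain carries *ASP3*, and in how many copies, was not tested.

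Alternative carbon sources were low as a group, at a median percentile of 25.3. *GAL10* gave 5.89 and 5.81 and the maltose permease *MAL11* 5.58 and 5.72, while *MAL31*, another maltose permease, was at 10.99 and 11.34. All 10 flocculins and adhesins were below the median without reaching the floor, from *FLO8*, a regulator of flocculation, at 8.05 and 8.05 to *FLO9* at 6.16 and 6.22. Cyclins and cell cycle kinases had a median percentile of 17.4. *CLN2* (5.79 and 5.77) and *CLB6* (5.78 and 5.74) were at the floor, and *SIC1*, the inhibitor of S phase cyclins, was the brightest of the list at 10.17 and 10.24. The phosphate transporter *PHO84*, repressed when phosphate is plentiful, gave 6.39 and 6.05.

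Markers of mating type and ploidy were read as a check of the strain. Of the 7 a-specific genes 4 lay above the 75th percentile, with the a-factor gene *MFA1* at 10.94 and 10.84, *MFA2* at 10.21 and 10.36, the a-factor exporter *STE6* at 10.14 and 10.19 and the alpha-factor receptor *STE2* at 10.02 and 9.98. *BAR1*, *AGA2* and *ASG7* were lower, between 6.53 and 7.94. Of the 4 alpha-specific genes *STE3*, *MF(ALPHA)1* and *MF(ALPHA)2* were at the floor, and *SAG1* gave 7.81 and 7.84. Among 13 haploid-specific genes 8 lay above the median and 5 below, with a median percentile of 65.8. Their mean log2 intensities ran from 10.40 down to 6.74. Those above the median included *GPA1*, the G protein subunit of the pheromone pathway, at 10.09 and 10.04. *RME1*, a repressor of meiosis, was also above it at 10.26 and 10.20. The haploid-specific list was thus mixed, and whether its signal reflects ploidy was not tested. Genes that are often used as references covered a wide range, from *TDH3* at a mean of 11.83 to *TFC1* at 7.49 and 7.54. *ACT1* (actin), at 11.90 and 11.75, was almost level with *TDH3*.

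In 37 families of isozymes and paralogues, both values of the member of highest signal exceeded both values of the second in 36. The share of arbitrary gene pairs that are apart in this way was not counted. Their median difference was 1.52 units, against an SD of 0.167 for a single value, so the count is not read as a trait of the families. Only the ranges of *HXK1* and *GLK1* overlapped. The members have different probes, so these are orders of signal. *TDH1* was followed by *TDH2* at 12.41 and 12.47 and *TDH3* at 11.64 and 12.02. The pyruvate decarboxylases *PDC6* (10.63 and 10.65) and *PDC5* (9.95 and 10.18) were well below *PDC1*. Of 5 pairs in which one form is known from air-grown and the other from hypoxic cells, 3 gave more signal for the hypoxic form and 2 did not. *CYC7* exceeded *CYC1*, at 8.90 and 8.14, *COX5B* (13.03 and 13.03) exceeded *COX5A* (11.28 and 10.97), and *HMG2* (11.29 and 11.34) exceeded *HMG1*. In the eIF5A pair the order was the other way, with *HYP2* at 13.84 and 13.04 and the hypoxic *ANB1* at 12.23 and 12.02. The ADP/ATP carriers did the same, with *AAC1* at 10.29 and 10.21 and the hypoxic *AAC3* at 9.53 and 9.40. A further carrier gene, *PET9*, did not enter this comparison.

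Several pairs were far apart. *PMA1* stood against *PMA2* at 7.28 and 7.08, and *GPD1* against *GPD2*. *GSC2*, the glucan synthase subunit linked to stress and sporulation, gave 13.06 and 13.27 and the growth-linked *FKS1* 10.82 and 10.37. Among the glutamate dehydrogenases *GDH3* gave 9.78 and 9.83 and *GDH1* 7.97 and 8.15. The ammonium permeases *MEP3* (10.60 and 10.70) and *MEP1* (9.68 and 9.80) followed *MEP2*. Of the cytosolic Hsp70 genes *SSA1* led at 11.35 and 11.12 and *SSA2* was last at 6.59 and 7.09.

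**Figure D3:**
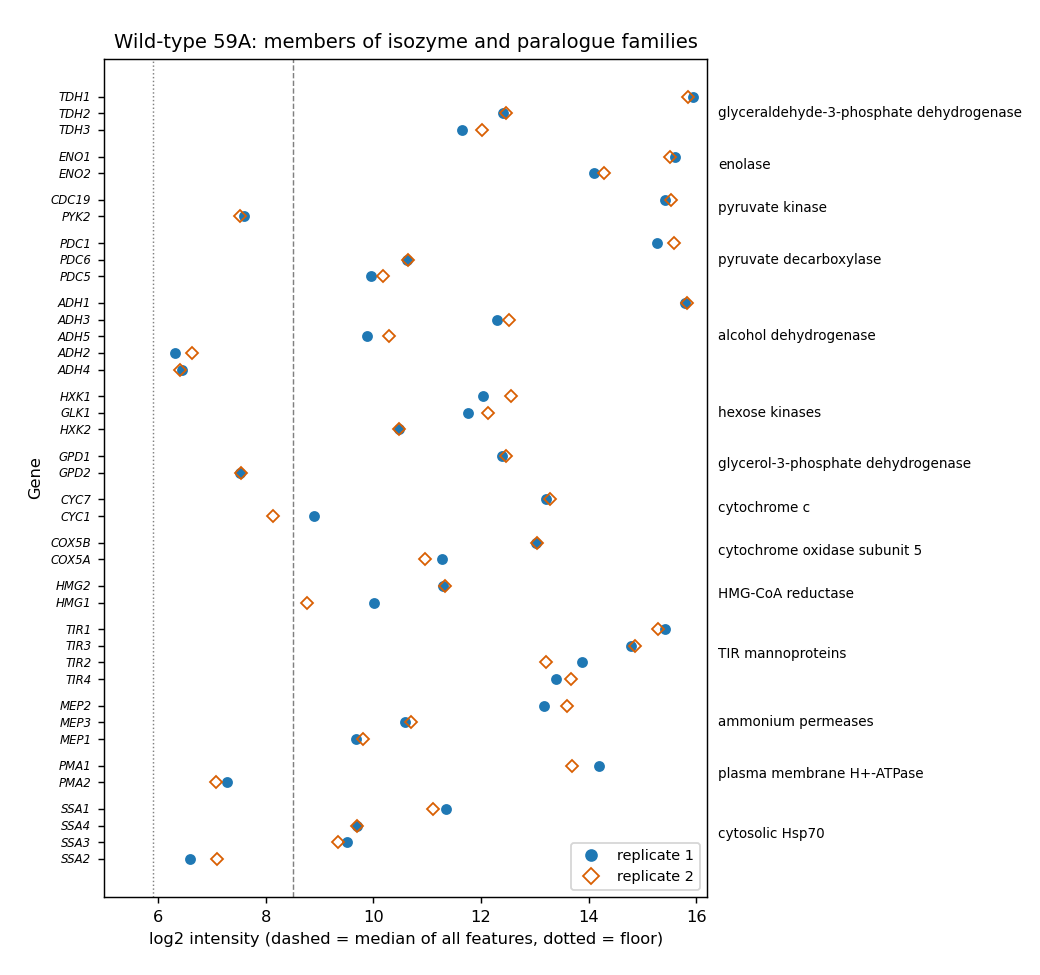
Log2 intensities of the members of 14 families, with replicate 1 as filled circles and replicate 2 as open diamonds, the median of all features dashed and the floor dotted. *TDH1*, *CDC19*, *PDC1* and *ADH1* lie far to the right of their paralogues, whereas *HXK1* and *GLK1* overlap.

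The 2 cultures ranked the transcripts in nearly the same order. Over the 6226 features, which are not independent replicates and share normalisation and probe affinity, Pearson's r was 0.992 and Spearman's rho 0.990. The SD of the difference, replicate 1 minus replicate 2, was 0.236, which puts the SD of a single value at 0.167, and a median-based estimate was 0.180. The median rank shift was 119 places, and it was 35 in the brightest 10% of features and 195 in the 10% just below the median. Of the 100 brightest features on each array 91 were shared, and of the 40 brightest 38. The SD was 0.107 in the dimmest 10% of features and 0.290 in the brightest 10%. With 2 samples of 1 group no test between the cultures was made, and the counts below describe these 2 arrays.

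A difference of more than 1 unit, or 2-fold, was found for 22 features (0.353% of all), 20 with more signal in replicate 1 (0.321%) and 2 in replicate 2 (0.0321%). Differences over 0.5 were also lopsided, with 239 features higher in replicate 1 (3.84%) and 50 in replicate 2 (0.803%). Small differences went the other way, since replicate 1 exceeded replicate 2 in 2777 features (44.6%) and fell below it in 3444 (55.3%), with a median difference of -0.02.

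Genes of ribosome production leaned towards replicate 1. Ribosome biogenesis genes were higher there in 73 of 74 cases, against 44.6% of all features, with a median difference of 0.43. A difference of 0.5 was exceeded by 33 of them, against 3.84% of all features. *NOP58*, a core protein of small nucleolar RNA particles, gave 10.03 against 8.83 and *DBP2*, an RNA helicase, 10.35 against 9.16. The single member with more signal in replicate 2 was *UTP20*, at 8.53 and 8.54. Ribosomal proteins moved less but in the same sense, with 116 of 135 higher in replicate 1, against 44.6% of all features, and median differences of 0.22 for the small and 0.16 for the large subunit. All 14 elongation and termination factors were higher in replicate 1, with a median of 0.23. RNA polymerase I and III genes had a median of 0.17.

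Ergosterol genes formed the other list with a median difference above 0.25. Of 24 members 22 were higher in replicate 1, against the same 44.6%, with a median of 0.34. *HMG1* differed most, at 10.02 against 8.77, and *ERG13*, the HMG-CoA synthase, gave 12.49 against 11.79. *ERG28* had slightly more signal in replicate 2, at 13.33 and 13.39, as did *HMG2*.

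Replicate 2 had more signal in the general stress response list and several others, by smaller amounts. The general stress response list was higher there in 32 of 42 members, against 55.3% of all features, with a median difference of -0.17, led by *DDR2* at 11.16 against 11.88. The proton ATPases (-0.17), trehalose and glycogen genes (-0.17), subtelomeric genes (-0.19) and alcoholic fermentation (-0.22) leaned the same way. Oxidative stress defence did not, with 14 members higher in each replicate and a median of 0.007. For alcoholic fermentation the mean over members was only -0.06, since *ADH6* gave 11.40 against 10.38, towards replicate 1. The proteasome was higher in replicate 2 in 27 of 33 members and the mitochondrial ribosomal proteins in 50 of 59, again against 55.3%. Glycolysis was near the 55.3% of all features, with 11 of 19 members higher in replicate 2. The median was -0.06 for glycolysis, where *GPM2*, a relative of *GPM1*, gave 11.63 against 12.23 and *HXK1* 12.04 against 12.55. For seripauperin genes it was -0.01, with *PAU23* higher in replicate 1. Most members of the seripauperin list, and the brightest of glycolysis, lie near the scanner ceiling, where the size of a difference may be compressed.

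**Figure D4:**
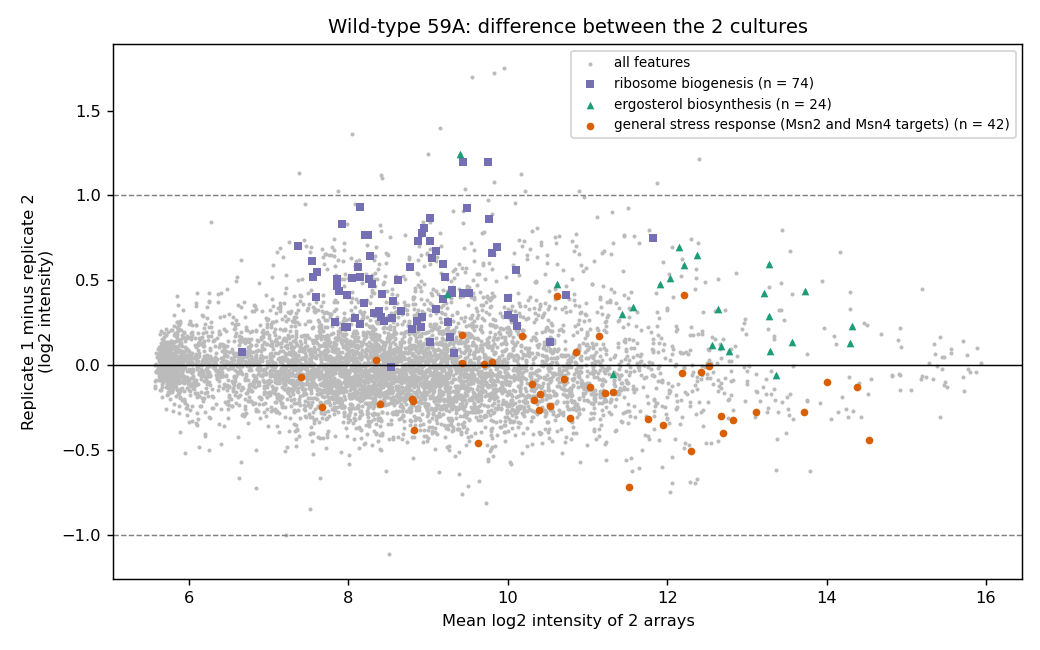
Replicate 1 minus replicate 2 is plotted against the mean log2 intensity for all 6226 features (grey), with dashed lines at 1 unit in either direction. Ribosome biogenesis (squares) and ergosterol genes (triangles) lie mostly above 0, and the general stress genes (circles) mostly below.

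**Figure D5:**
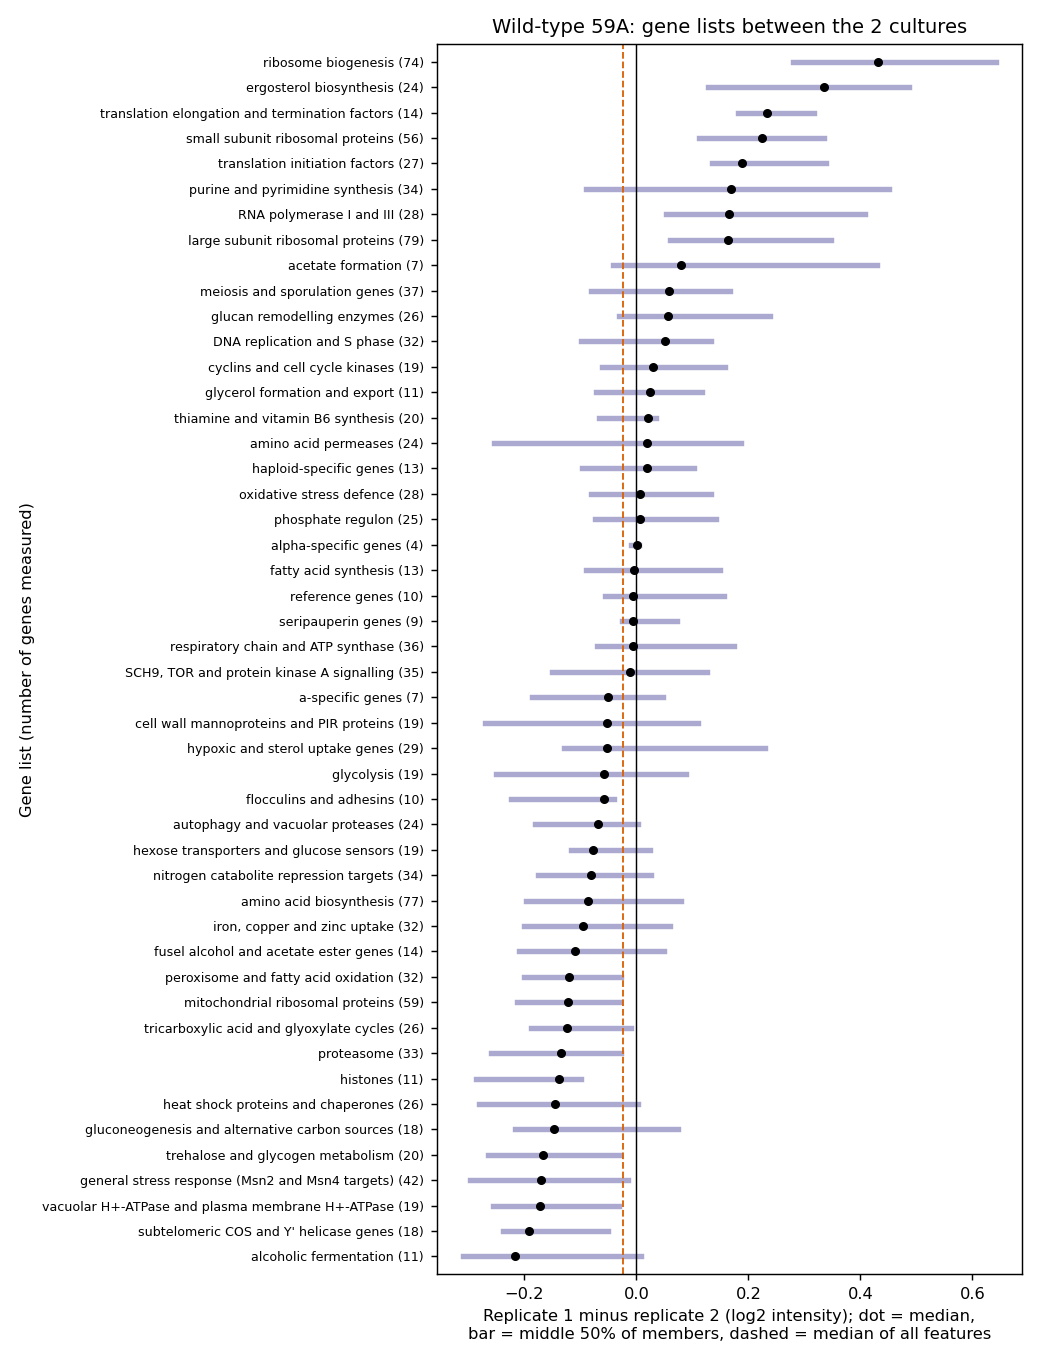
For each of the 48 lists the dot is the median of replicate 1 minus replicate 2 in log2 intensity and the bar the middle 50% of members, with the median of all features, -0.02, dashed. The medians run from 0.43 in ribosome biogenesis to -0.22 in alcoholic fermentation.

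The largest single difference of a named gene was that of *PRM7*, a pheromone-regulated membrane protein, at 10.69 in replicate 1 and 8.97 in replicate 2. *GFD2* gave 9.84 against 8.44, and *NCA3*, related to wall glucanases, differed by 1.21. *FAA1*, an acyl-CoA synthetase, was at 8.97 and 7.87, and *SSB1*, a ribosome-associated Hsp70, at 10.73 and 9.71. In the other direction *OPT2*, a peptide transporter, gave 7.94 in replicate 1 against 9.06 in replicate 2. *HSP30*, a plasma membrane heat shock protein, was at 11.71 and 12.41, and the hexose transporter probes *HXT6* and *HXT7* were higher in replicate 2 by similar amounts.

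Adjacent named genes were little alike in signal, and divergent pairs somewhat more alike than the others. Over 2792 pairs of adjacent named genes Spearman's rho of the mean log2 intensities was 0.05, and the median absolute difference of 1.45 was close to the 1.52 of all possible pairs among the 3641 genes. By orientation rho was 0.18 for 709 divergent pairs, 0.02 for 757 convergent pairs and 0.01 for 1326 pairs on the same strand. The replicate differences of neighbours gave a rho of 0.11, and of 0.21 in divergent pairs. Pairs share genes and arrays, and these values are descriptions.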

How the data were processed

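The study hybridised Cy3-labelled cRNA to one-colour Agilent yeast arrays, 1 culture per array. The authors scanned them with GenePix and quantile normalised all 4 arrays together with limma in R 2.14.2, so that the deposited log2 intensities hold 1 number for each probe. That the scale is log2 was read from the range of the numbers. Of the handling of background and of replicate spots nothing was given in the sources used here. All arrays share slide 1, with wild-type replicate 1 at position 6 and replicate 2 at position 1, so position and culture cannot be told apart. The number of arrays limits the precision.

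No further normalisation was applied. Symbols came from the array annotation, were matched to RefSeq (4053 matched) and 125 were updated to current names. Probes of a gene were averaged on the log2 scale. Percentiles are over 6226 features. Values were computed with Python 3.11.15, pandas 2.3.3, numpy 2.4.6 and scipy 1.17.1, and the functions were tested on simulated data. No test was applied, because the ranking concerns 1 group of 2 arrays.

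The members, the 48 gene lists and the 37 families were chosen with earlier results of these data known. Named genes are the 40 brightest features, the 10 dimmest named features, up to 6 highest, 4 lowest and 3 nearest the median of each list, all family members, the 15 largest replicate differences in each direction and up to 3 per list, and the marker and reference genes. The rule takes more genes than are printed, and the selection was made with the values in view. Alternatives covered renormalisation, centring, filters, thresholds, list means and leaving out each replicate. The arrays of the deleted strain, gene sequences and RefSeq coordinates were not used here, apart from gene order and orientation.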

Additional observations from a re-analysis of the deposited data

How the results depend on the processing

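No paired analysis was possible because the ranking concerns a single group and comes from no test. Counts that depend on a threshold moved with it: 22 features differed over 2-fold between the replicates, 14 when only features with a gene symbol were kept and 196 at a fold of 1.5. The top 50 of the arrays shared 45 features, against 91 for the top 100, and held 0 ribosomal protein genes, against 1. Leaving out a replicate gave 496 to 505 floor features against 512 with both, 25 lists above the 75th percentile in either case, and 1 ribosomal protein gene in the top 100 in either case. A floor of 0.5 units gave 694 features. The number of lists above the 75th percentile was 17 with the mean over members, which low members pull down, against 25 with the median. Under that choice 42 of 48 list positions moved beyond the replicate spread, and 12 and 9 moved without replicate 1 and replicate 2. The spread of a list comes from the same 2 replicates, so lists whose replicates lie close are the first to count as moved. The largest shift was 5.74 percentile points without replicate 1 and 5.33 without replicate 2. The median replicate difference of each of the 48 lists moved by at most 0.157 under renormalisation, centring and list means. The SD of the differences over all features was 0.236. Probe affinity, copies that share signal and compression near the scanner ceiling limit the order of signal, and no detection flags were used for the floor.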

Other observations

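The highest unnamed probe, A_06_P1242, had rank 14 at 15.51 and 15.46 in replicates 1 and 2. Unnamed probes made up 15 of the 40 and 26 of the 100 brightest features. In the dimmest 10% of features 21.7% had a gene symbol, and in the brightest 10% 78.2%. The median log2 intensity was 8.80 for named and 7.88 for unnamed features.

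Genes of iron, copper and zinc uptake had a median percentile of 44.4 over 32 genes. Apart from the *CUP1* probes the brightest was *SMF3*, a vacuolar iron exporter, at 12.04 and 12.51. *FRE5* and *FRE7*, of the ferric and cupric reductase family, were at the floor, at 5.75 and 5.79 and at 5.83 and 5.88. The zinc transporter *ZRT1* gave 5.98 and 5.92. The list of autophagy and vacuolar protease genes had 18 of 24 members above the median and a median percentile of 70.6, with the aminopeptidase *APE1* at 12.66 and 12.87 and the proteinase *PEP4* at 12.30 and 12.34, and the autophagy gene *ATG16* was at the floor at 5.71 and 5.75. Peroxisome and fatty acid oxidation genes had a median percentile of 56.2 over 32 genes, and 27 had more signal in replicate 2, against 55.3% of all features.

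The subunits of ribonucleotide reductase, which makes DNA precursors, were the brightest of the DNA replication list, led by *RNR2* at 13.37 and 13.16. *RNR3* gave 11.96 and 11.82, more signal than *RNR1* at 10.24 and 9.93. The list as a whole had a median percentile of 39.0. Purine and pyrimidine genes included both a replicate 1 and a replicate 2 extreme among the CTP synthases, with *URA7* at 8.38 against 7.35 and *URA8* at 11.24 against 11.87.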
